A study of Mus musculus with 9 samples.

Results

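The immunity-related GTPases (IRG proteins) were followed through 9 microarrays of mouse bone marrow-derived macrophages (BMDMs), which are macrophages grown from marrow in macrophage colony-stimulating factor (M-CSF). The family was represented by 7 genes, Irgm1, Irgm2, Igtp, Iigp1, Ifi47, Tgtp1 and Tgtp2, and a gene counted as measured where the platform annotation gave it a probe set of its own. That held for 5 of the 7 genes, covered by 6 probe sets, out of 18193 genes measured in all. The remaining pair, Tgtp1 and Tgtp2, share 1 probe set that cannot tell them apart, and no level is given for them.

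The marrow came from BALB/c mice aged 8 to 10 weeks and was cultured for 7 days, and before treatment the cells were held overnight in medium with 1% serum and M-CSF. In TNC + TLR4i, 3 arrays, cells received 3 µM TAK-242, a small molecule inhibitor of Toll-like receptor 4 (TLR4), for 1 h, followed by 6 h with tenascin C (TNC), an extracellular matrix protein added as recombinant protein at 2 µg/ml. In TNC + vehicle, 3 arrays, 0.1% DMSO took the place of the inhibitor. In untreated, 3 arrays, no agent is named, and vehicle or inhibitor without TNC was not among the groups, so that TNC and what was given with it cannot be told apart against untreated cells. Nothing in the labels ties the replicates to separate mice, so p-values measure the spread between these samples, and in RNA from whole cultures, fewer cells of a type and less RNA per cell cannot be told apart.

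IRG proteins are interferon-inducible GTPases that act inside the cell against microbes living in vacuoles, such as Toxoplasma gondii and Chlamydia trachomatis. The effector proteins, Iigp1 (also called Irga6), Ifi47 (Irgd) and the Tgtp proteins (Irgb6), gather on the vacuole and break its membrane, while the regulator proteins, Irgm1, Irgm2 and Igtp (Irgm3), sit on the membranes of the host cell and keep the effectors from loading there. In mouse macrophages the genes are induced through STAT and IRF transcription factors that bind the interferon-stimulated response element (ISRE) and the gamma-activated site (GAS), and TLR4 ligands reach them largely through interferon made by the same culture.

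RefSeq promoter windows (assembly GRCm38.p6, 250 bases before to 50 bases after the annotated start) were at hand for 6 of the 7 genes and not for Iigp1. The stretches below, all from chromosome 11, are printed because they hold the ISRE and GAS matches of the 5 windows that have any, and show how closely the regulators and the Tgtp genes resemble each other there. Capitals mark matches to the ISRE motif (GAAA, any 2 bases, GAAA) and, where present before it, to the GAS motif (TTCNNNGAA), on the strand of the gene. Irgm1 lies at chr11:48871423-48871478 (minus strand), Irgm2 at chr11:58214879-58214934 (plus), Igtp at chr11:58199488-58199543 (plus), Tgtp1 at chr11:48992302-48992357 (minus) and Tgtp2 at chr11:49064261-49064316 (minus), each just before the annotated start.
Irgm1: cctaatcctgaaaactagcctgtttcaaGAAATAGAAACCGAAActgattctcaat
Irgm2: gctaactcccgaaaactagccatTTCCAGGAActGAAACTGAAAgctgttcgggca
Igtp: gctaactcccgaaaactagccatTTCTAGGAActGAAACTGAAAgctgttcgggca
Tgtp1: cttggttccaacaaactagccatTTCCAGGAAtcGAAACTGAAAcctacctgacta
Tgtp2: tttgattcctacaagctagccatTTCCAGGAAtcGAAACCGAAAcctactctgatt

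The stretches were set side by side without gaps at the ISRE match nearest the start. Those of Igtp and Irgm2 were identical at 55 of 56 bases (98.2%), and those of Tgtp1 and Tgtp2 at 45 of 56 (80.4%). Between these pairs the identity was lower, at 37 or 38 of 56 bases (66.1% or 67.9%). Irgm1 shared between 28 (50.0%) and 34 (60.7%) of 56 bases with the other 4. Bases shifted against each other are not lined up by this count, which can understate the resemblance. In Igtp, Irgm2, Tgtp1 and Tgtp2 a GAS match was followed by an ISRE match after a gap of 2 bases. In Irgm1 there was no GAS match, and 2 ISRE matches overlapped by 4 bases.

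Counted on both strands, the ISRE letters occurred in 5 of the 6 IRG windows and in 1131 of all 32851 windows of this length (3.44%). The GAS letters occurred in 4 of the 6 IRG windows and in 2726 of all windows (8.3%). A kB motif for NF-kB (GGGA, any base, TTTCC) occurred in 0 of the 6 IRG windows and in 135 of all (0.411%). The window of Ifi47 held none of the 3 motifs, which says only that these letters are not in this window. The ordered arrangement, a GAS match followed by an ISRE match within 10 bases, was defined after the sequences had been seen. It occurred in 15 of all windows (0.0457%), 4 of them of IRG members and another of Gm12185, also an IRG gene.

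**Figure D1:**
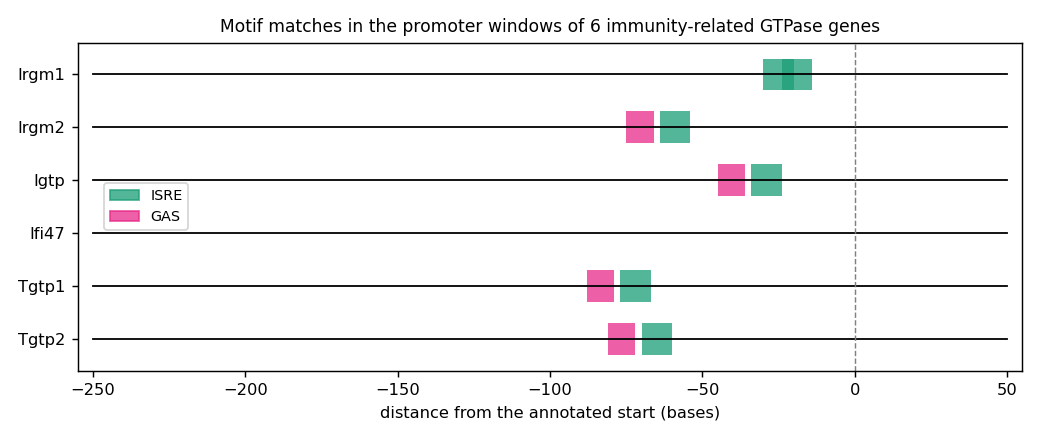
Matches to the ISRE and GAS letters in the promoter windows of the 6 IRG genes that have one, by distance in bases from the annotated start (dashed line). Igtp, Irgm2, Tgtp1 and Tgtp2 each show a GAS match just upstream of an ISRE match, Irgm1 shows 2 overlapping ISRE matches, and Ifi47 shows none.

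Values are log2 signals after robust multiarray averaging (RMA), on which a difference of 1 is a doubling, and a gene with several probe sets is given by the brightest. A gene was called where limma gave an adjusted p under 0.05 over all 45037 probe sets and the difference was at least 1.5-fold. Array medians lay between 6.72 and 6.74. The macrophage marker list, 10 of 10 genes measured, averaged 12.38 to 12.45 in TNC + TLR4i arrays, 12.57 to 12.66 in TNC + vehicle arrays and 12.48 to 12.5 in untreated arrays, while the T, B, NK and dendritic cell lists stayed between 6.23 and 6.66 and the neutrophil list between 7.06 and 7.6. The fibroblast list averaged 9.88 to 10.28, 9.99 to 10.29 and 10.03 to 10.25 in the same order of groups, with Col1a2, a fibrillar collagen chain, the brightest at 13.24. The endothelial list averaged 7.21 in TNC + vehicle replicate 1 against 6.47 in the other TNC + vehicle arrays, so that this array stood apart. The 3' minus 5' signal of the actin control was 0.30 to 0.37 in TNC + TLR4i, 0.20 to 0.22 in TNC + vehicle and 0.29 to 0.32 in untreated arrays. The part of these array differences in the results was not tested, except that each result was also computed without each array.

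To see how the family differed in cells given TNC and vehicle, TNC + vehicle was first set against untreated. All 5 measured IRG genes rose, by 2.5-fold for Irgm1 to 7.54-fold for Iigp1. Effectors and regulators both rose, and each TNC + vehicle array lay above each untreated array for all 5 genes. The share of all genes called higher was 3.74%, and the share whose groups did not overlap in this direction was 19.7%. The median difference over the 5 genes was 1.92, against 0.006 over all genes.

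Among the regulators, Irgm1, which holds effectors off host membranes and is needed in mice for resistance to several vacuolar bacteria, had values of 12.00, 12.06 and 11.99 in TNC + vehicle arrays, against 10.37, 10.92 and 10.79 in untreated arrays (probe set 1418825_at). The untreated arrays spread more widely (SD 0.29) than the TNC + vehicle arrays (SD 0.04), and the groups did not overlap. The difference of 1.32 ± 0.12 (SE; 95% interval 1.07 to 1.58) was the smallest of the 5 genes and ranked 190 among all rises (limma adjusted p = 5.63e-06). Irgm2, a second regulator found largely at the Golgi, had values of 11.51, 11.56 and 11.68 in TNC + vehicle arrays, against 9.35, 10.08 and 9.77 in untreated arrays (1417793_at). The untreated arrays spread more widely than the TNC + vehicle arrays and still lay wholly below them. Irgm2 rose 3.6-fold, a difference of 1.85 ± 0.14 (1.54 to 2.16; limma adjusted p = 1.91e-06). Igtp, a regulator found on the endoplasmic reticulum and lipid droplets, had values of 12.26, 12.42 and 12.50 in TNC + vehicle arrays, against 9.74, 10.34 and 10.19 in untreated arrays (1417141_at). It rose the most of the 3 regulators, 4.93-fold, with a difference of 2.30 ± 0.13 (2.02 to 2.59; limma adjusted p = 1.71e-07).

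Among the effectors, Iigp1, the family member best known for coating the Toxoplasma vacuole, had values of 11.70, 11.97 and 11.98 in TNC + vehicle arrays, against 8.70, 9.20 and 9.01 in untreated arrays (1419043_a_at). Its rise of 2.91 ± 0.12 (2.65 to 3.17) ranked 23 among all genes (limma adjusted p = 1.77e-08). The second probe set of Iigp1, 1419042_at, gave nearly the same difference, 2.92 ± 0.16 (limma adjusted p = 1.24e-07), from a lower signal. Ifi47 had values of 13.22, 13.41 and 13.38 in TNC + vehicle arrays, against 11.13, 11.59 and 11.52 in untreated arrays (1417292_at). Ifi47 rose 3.79-fold, a difference of 1.92 ± 0.11 (1.68 to 2.16; limma adjusted p = 1.81e-07). Without TNC + vehicle replicate 1, the array with the endothelial signal, all 5 genes were still called, with differences of 1.33 for Irgm1, 1.89 for Irgm2, 2.37 for Igtp, 3.00 for Iigp1 and 1.98 for Ifi47.

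**Figure D2:**
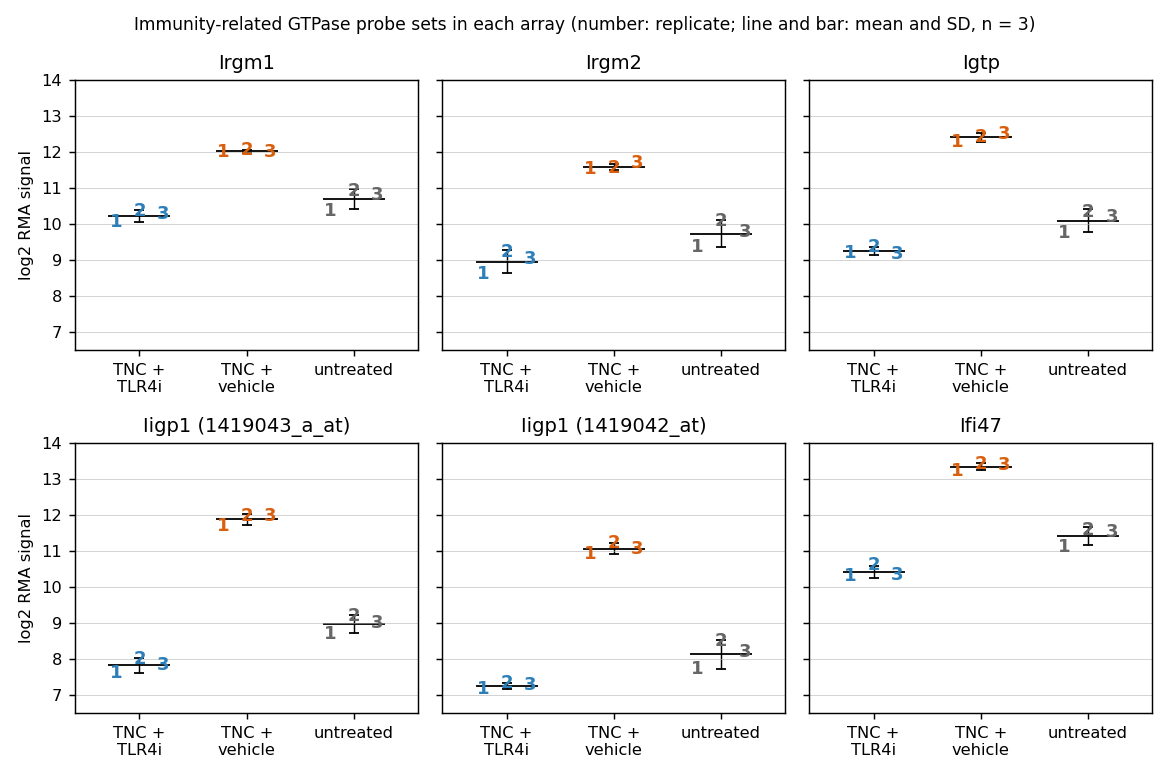
Log2 RMA signal of the 5 measured IRG genes on each of the 9 arrays, in the groups TNC + TLR4i, TNC + vehicle and untreated. Numbers mark the replicate of each array, and lines and bars give group means and SD. Iigp1 is shown by both of its probe sets. In each gene the TNC + vehicle arrays lie above both other groups, and the TNC + TLR4i arrays lie below the untreated arrays.

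The next comparison, TNC + TLR4i against TNC + vehicle, asked how much of that level was present with the inhibitor. All 5 measured IRG genes fell, by 3.47-fold for Irgm1 to 16.6-fold for Iigp1, and each TNC + TLR4i array lay below each TNC + vehicle array. The share of all genes called lower was 4.05%, and the share whose groups did not overlap in this direction was 18.4%. The median difference over the 5 genes was -2.91, against 0.002 over all genes. This comparison and the one before it share the TNC + vehicle arrays, and the next shares arrays with both, so their directions are not independent of each other.

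The regulator Irgm1 had values of 10.04, 10.35 and 10.28 in TNC + TLR4i arrays, against the 11.99 to 12.06 of TNC + vehicle arrays. Its difference of -1.79 ± 0.08 (-1.98 to -1.61; limma adjusted p = 1.93e-08) was again the smallest of the family. Irgm2 had values of 8.61, 9.23 and 9.02 in TNC + TLR4i arrays, against 11.51 to 11.68 in TNC + vehicle arrays. Irgm2 fell 6.19-fold, a difference of -2.63 ± 0.13 (-2.91 to -2.35; limma adjusted p = 2.39e-08). Igtp, the third regulator, had values of 9.19, 9.37 and 9.17 in TNC + TLR4i arrays, against 12.26 to 12.50 in TNC + vehicle arrays. The Igtp arrays within each group lay close together, and the fall was 8.88-fold, a difference of -3.15 ± 0.08 (-3.33 to -2.97; limma adjusted p = 1.77e-10).

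For the effector Iigp1, values were 7.62, 8.02 and 7.85 in TNC + TLR4i arrays, against 11.70 to 11.98 in TNC + vehicle arrays. The fall of 4.05 on the log2 scale (SE 0.11) placed Iigp1 at rank 16 among all falls (limma adjusted p = 1.47e-10). Its second probe set fell 13.9-fold, a difference of -3.80 ± 0.09 (limma adjusted p = 5e-11). Ifi47 had values of 10.32, 10.62 and 10.35 in TNC + TLR4i arrays, against 13.22 to 13.41 in TNC + vehicle arrays. Ifi47 fell 7.49-fold, a difference of -2.91 ± 0.09 (-3.10 to -2.71; limma adjusted p = 6.01e-10). Without TNC + vehicle replicate 1 the differences were -1.80 for Irgm1, -2.67 for Irgm2, -3.22 for Igtp, -4.15 for Iigp1 and -2.96 for Ifi47, and all 5 genes were still called.

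Finally, TNC + TLR4i was set against untreated to see where the family stood when TNC and inhibitor were given together. The arrays of TNC + TLR4i lay below those of untreated for all 5 genes, and 3 of the 5 passed the test as lower, the effectors Iigp1 and Ifi47 and the regulator Igtp. Few genes were called here, with 0.198% of all genes called lower and 0.0605% called higher, and the groups did not overlap in the lower direction for 6.56% of genes. The median difference over the 5 genes was -0.85, against 0.009 over all genes. Each of the 5 had an unadjusted limma p under 0.05, for which the share of all genes was not computed.

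Iigp1 averaged 7.83 ± 0.20 in TNC + TLR4i and 8.97 ± 0.25 in untreated (SD, n = 3 each). The difference of -1.14 ± 0.12 (SE; -1.40 to -0.88), 2.2-fold, ranked 4 among all falls (limma adjusted p = 0.00148), and the second probe set of Iigp1 gave -0.88 ± 0.15 (limma adjusted p = 0.016). Ifi47 averaged 10.43 ± 0.16 in TNC + TLR4i and 11.41 ± 0.25 in untreated (SD, n = 3 each), a difference of -0.98 ± 0.11 (-1.23 to -0.74; rank 8; limma adjusted p = 0.0024). Both measured effectors thus lay below their untreated level on every TNC + TLR4i array. Igtp averaged 9.24 ± 0.11 in TNC + TLR4i and 10.09 ± 0.31 in untreated (SD, n = 3 each), a difference of -0.85 ± 0.12 (-1.12 to -0.58; rank 12; limma adjusted p = 0.00803). Irgm2 averaged 8.95 ± 0.32 in TNC + TLR4i and 9.73 ± 0.37 in untreated (SD, n = 3 each), and its difference of -0.78 ± 0.17 (-1.15 to -0.41) did not pass the test (limma adjusted p = 0.0747). Irgm1 averaged 10.22 ± 0.16 in TNC + TLR4i and 10.69 ± 0.29 in untreated (SD, n = 3 each), and its difference of -0.47 ± 0.12 (-0.74 to -0.20) did not pass either (limma adjusted p = 0.189).

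Under a stricter test that the change exceeds 1.5-fold (treat in limma), 0 of the 5 genes passed here. The number called also moved with single arrays. Without untreated replicate 1 all 5 genes passed, Irgm2 with a difference of -0.97 (limma adjusted p = 0.0208) and Irgm1 with -0.63 (0.0194). Without TNC + TLR4i replicate 2, Irgm2 passed (-0.92, limma adjusted p = 0.0414), and without TNC + TLR4i replicate 1, Igtp no longer did (limma adjusted p = 0.052). Over the 6 probe sets, replicate 1 was the lowest untreated array in 6 and replicate 2 the highest in 6, with a spread of 0.45 to 0.78 between the lowest and highest array. In TNC + TLR4i, replicate 1 was lowest in 5 and replicate 2 highest in 6, with a spread of 0.14 to 0.62. In TNC + vehicle, replicate 1 was lowest in 5 and replicates 2 and 3 were each highest in 3, with a spread of 0.07 to 0.31.

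**Figure D3:**
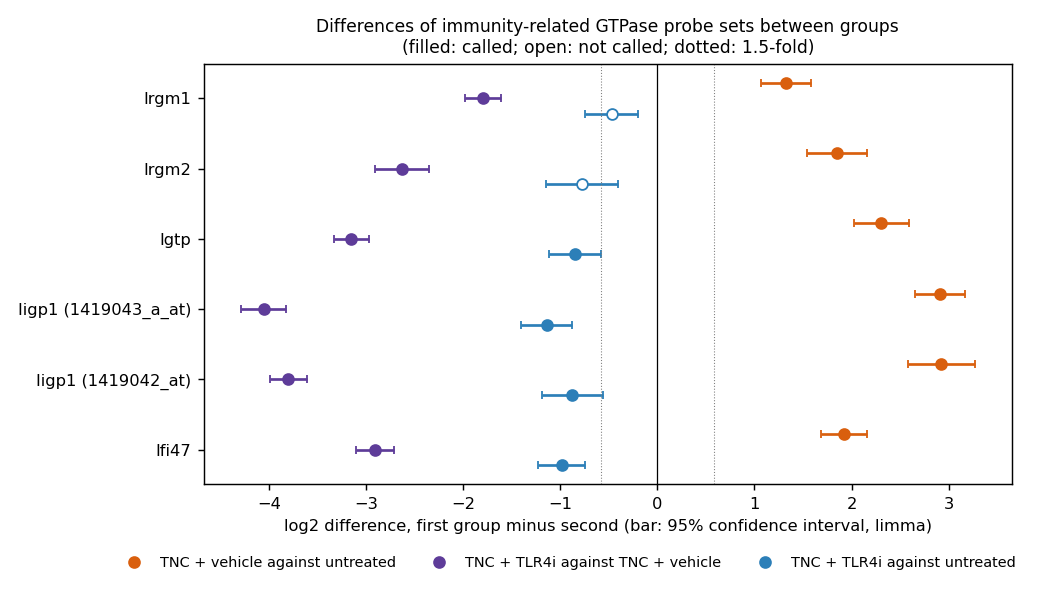
Log2 difference of the 5 measured IRG genes in each of the 3 comparisons (points, with 95% intervals from limma). Filled points were called and open points were not, and Iigp1 is shown by both of its probe sets. The rises with TNC + vehicle and the falls with TNC + TLR4i are largest in Iigp1 and smallest in Irgm1, and Irgm1 and Irgm2 are the open points in TNC + TLR4i against untreated.

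The sizes of the responses were also set side by side. The log2 difference of Iigp1 minus that of Irgm1 was 1.59 ± 0.09 (SE) for TNC + vehicle against untreated and -2.26 ± 0.09 for TNC + TLR4i against TNC + vehicle. Each of the 10 pairs of genes was compared in this way by an exact two-sided permutation test on the per-array differences between 2 genes. With 3 arrays against 3 the smallest p this test allows is 0.1, which 9 of the 10 pairs reached with TNC + vehicle against untreated, so no pair could pass the threshold. The exception was Ifi47 and Irgm2, whose rises differed by 0.07 ± 0.10 (exact permutation p = 0.6). Igtp and Irgm2 differed by 0.45 ± 0.06 with TNC + vehicle against untreated (exact permutation p = 0.1). They differed by -0.52 ± 0.15 with TNC + TLR4i against TNC + vehicle (exact permutation p = 0.1). With TNC + TLR4i against untreated, they differed by -0.07 ± 0.15 (exact permutation p = 0.8).

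Among the remaining IRG genes, 4 of 11 had a probe set of their own, and 1 of the 4 was called in each comparison. Over all genes, 3.74% were called higher with TNC + vehicle against untreated. The shares called lower were 4.05% with TNC + TLR4i against TNC + vehicle and 0.198% with TNC + TLR4i against untreated. Gm4951, an IRG gene next to Iigp1, had values of 7.38, 7.72 and 7.51 in TNC + TLR4i arrays, 10.45, 10.49 and 10.64 in TNC + vehicle arrays and 8.08, 8.53 and 8.40 in untreated arrays. The 3 groups did not overlap. Its differences were 2.19 ± 0.10 for TNC + vehicle against untreated (limma adjusted p = 5.18e-08), -2.99 ± 0.09 for TNC + TLR4i against TNC + vehicle (5.25e-10) and -0.80 ± 0.11 for TNC + TLR4i against untreated (0.0059). Gm12185, whose promoter window carries the same GAS and ISRE arrangement as Igtp and Irgm2, was not called. It differed by -0.06 (-0.28 to 0.17) for TNC + vehicle against untreated and 0.13 (-0.10 to 0.35) for TNC + TLR4i against TNC + vehicle. Its signal was low, averaging 7.16 in TNC + TLR4i, 7.03 in TNC + vehicle and 7.09 in untreated, against array medians of 6.72 to 6.74. Irgc1, a family member known for expression in the testis, gave 0.05 and -0.11, and Irgq, a divergent member, gave -0.20 and 0.18 in these 2 comparisons, and neither was called. Irgc1 averaged 6.66 in TNC + TLR4i, 6.77 in TNC + vehicle and 6.72 in untreated. At the low signals of Gm12185 and Irgc1 a difference may be understated, so a missing call there does not show that the gene did not respond.

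The nearest measured protein-coding genes flanking or lying within the IRG loci were chosen after the members' values were seen. Gm4951, called in each of the 3 comparisons, was among them and was left out of the count. Gm12185, also an IRG gene but not called, was kept. The other genes, 18 with Gm12185, included 0 called genes in each of the 3 comparisons, a count that depends on leaving out Gm4951. With between 0.0605% and 4.25% of all genes called in one direction or the other, 0 of 18 is near the background. Without adjustment (limma p under 0.05), 2 were higher and 4 lower with TNC + vehicle against untreated, 6 higher and 2 lower with TNC + TLR4i against TNC + vehicle, and 0 with TNC + TLR4i against untreated (limma). Their differences ran from -0.57 to 0.41, from -0.38 to 0.55 and from -0.13 to 0.12 in these comparisons. The share of all genes with an unadjusted p under 0.05 was not computed, here or for the lists below.

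The genes most like the family were taken by the distance over the 9 arrays from the mean profile of the 5 members, each gene centred on its own mean. Gm4951 was nearest, at 0.207 on the log2 scale, followed among genes outside the family by Ifit1bl1 (0.312), an interferon-induced gene with tetratricopeptide repeats, Usp18 (0.339), the protease that removes ISG15 from proteins and damps type I interferon signalling, Helz2 (0.415), a helicase, and Gm20559 (0.54). By the same measure Ifi47 (0.242), Igtp (0.381) and Irgm2 (0.436) lay near the mean of the family, while Irgm1 (1.395), with the smallest response, and Iigp1 (1.465), with the largest, lay at ranks 94 and 103 of all genes. The arrays within a group share a treatment, so the distance describes these 9 arrays and carries no test.

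The interferon pathway that induces the family was read from the cytokines inward. Of 23 genes for interferon ligands and receptors 15 were measured, and their median difference was 0.07 for TNC + vehicle against untreated and -0.09 for TNC + TLR4i against TNC + vehicle. With TNC + vehicle against untreated, 0 were called higher and 1 lower, although limma gave 5 higher and 3 lower when an unadjusted p under 0.05 alone was asked for. The share of all genes called lower there was 4.05%. Ifnb1, which encodes interferon-beta, had values of 6.52, 6.51 and 6.62 in TNC + vehicle arrays, against 6.35, 6.45 and 6.31 in untreated arrays. These signals lay close to the lower quartile of all probe sets, 6.21 to 6.23, where RMA leaves a floor that understates differences. The difference of 0.18 ± 0.07 did not pass (limma adjusted p = 0.0807), and that of TNC + TLR4i against TNC + vehicle, -0.24, passed on p (limma adjusted p = 0.0183) but not on fold. Ifng, which encodes interferon-gamma, averaged 5.98 in TNC + TLR4i, 5.85 in TNC + vehicle and 5.92 in untreated and was not called.

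The called gene among the receptors was Ifngr1, the ligand-binding chain of the interferon-gamma receptor. Ifngr1 had values of 10.64, 10.74 and 10.69 in TNC + TLR4i arrays, 10.03, 10.05 and 10.07 in TNC + vehicle arrays and 11.01, 10.85 and 10.64 in untreated arrays. It fell with TNC + vehicle against untreated, with a difference of -0.79 ± 0.09 (limma adjusted p = 4.29e-05), and was higher by 0.64 with TNC + TLR4i against TNC + vehicle (limma adjusted p = 1.41e-05), where 4.25% of all genes were called higher. With cyclic loess scaling the second difference was 0.54, under 1.5-fold. The other chain, Ifngr2, differed by 0.39 with TNC + vehicle against untreated, and the type I receptor chains Ifnar1 and Ifnar2 differed by 0.42 and -0.47. Each of these 3 passed on p and stayed under 1.5-fold.

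Inside the cell, 9 of 19 measured signalling genes and transcription factors were called higher with TNC + vehicle against untreated and 0 lower. With TNC + TLR4i against TNC + vehicle, 0 were called higher and 9 lower. Over all genes, 3.74% were called higher and 4.05% lower in the first comparison, and 4.25% higher and 4.05% lower in the other. Without adjustment (limma p under 0.05) the counts were 15 higher and 1 lower, and 1 higher and 15 lower. The list medians were 0.45 and -0.51. Stat2, a subunit of the ISGF3 complex that binds ISREs, had values of 8.47, 8.61 and 8.31 in TNC + TLR4i arrays, 10.79, 10.93 and 10.97 in TNC + vehicle arrays and 8.72, 9.06 and 9.18 in untreated arrays. It rose with TNC + vehicle against untreated (1.91) and fell with TNC + TLR4i against TNC + vehicle (-2.43). Irf1, which acts on ISREs downstream of interferon-gamma, rose by 1.32 with TNC + vehicle against untreated, as did the kinase Jak2, and Irf7, a driver of interferon-alpha genes, rose by 1.33. Irf9, the DNA-binding subunit of ISGF3, differed by -0.01 (limma adjusted p = 0.946), and Irf8, a lineage factor of macrophages, by -0.36, under 1.5-fold.

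Of the negative regulators in this list, Usp18, Socs1 and Socs3 were called higher with TNC + vehicle against untreated, while Ptpn2 (0.45), Ptpn6 (0.28) and Pias1 (-0.14) were not called. Usp18 had values of 9.18, 9.57 and 9.16 in TNC + TLR4i arrays, 12.28, 12.44 and 12.56 in TNC + vehicle arrays and 9.95, 10.56 and 10.41 in untreated arrays. It rose by 2.12 with TNC + vehicle against untreated, and Socs3 and Socs1, which block the receptor-bound JAK kinases, rose by 1.77 and 1.02. Usp18 was also the 1 signalling gene called with TNC + TLR4i against untreated, at -1.0 ± 0.14 (limma adjusted p = 0.00678), where 0.198% of all genes were called lower. Stat2 (-0.52, limma adjusted p = 0.0655) and Irf1 (-0.28, 0.0936) did not pass there, and the list median was -0.08.

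Guanylate-binding proteins (GBPs) are larger interferon-induced GTPases that follow IRG proteins onto the vacuole. With TNC + vehicle against untreated 5 of the 6 measured GBP genes were called higher, with a list median of 3.35. With TNC + TLR4i against TNC + vehicle 5 were called lower, with a list median of -3.89. Over all genes, 3.74% were called higher in the first comparison and 4.05% lower in the other. Gbp2b, known earlier as Gbp1 of the mouse, had values of 8.04, 7.95 and 7.91 in TNC + TLR4i arrays, 12.38, 12.50 and 12.54 in TNC + vehicle arrays and 8.47, 8.61 and 8.57 in untreated arrays. Its rise with TNC + vehicle against untreated was 3.92, and those of Gbp2 (3.57) and Gbp3 (3.37) were likewise above the 2.91 of Iigp1, though differences between GBP and IRG genes were not tested. Gbp8 was not called, at a low signal that averaged 6.10 in TNC + TLR4i, 6.40 in TNC + vehicle and 6.23 in untreated. With TNC + TLR4i against untreated 2 GBP genes were called lower, Gbp3 (-0.92) and Gbp7 (-0.81), against 0.198% of all genes. There Gbp2 and Gbp2b both differed by -0.58, just under 1.5-fold.

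The ubiquitin-like conjugation machinery of autophagy, which places LC3 and GABARAP proteins on membranes and is needed in mice to direct IRG effectors to the right vacuole, was also counted. Of its 12 genes, all measured, 0 were called higher and 1 lower with TNC + vehicle against untreated (list median -0.16), and 2 higher and 0 lower with TNC + TLR4i against TNC + vehicle (0.25). In the first of these comparisons 3.74% of all genes were called higher and 4.05% lower, and the list counts are near that background. In the other, 4.25% were called higher and 4.05% lower. There the 2 of 12 called higher lay above the share of all genes, but the count is small and was not tested. The median over all genes was 0.006 in the first comparison and 0.002 in the other. The unadjusted limma p was under 0.05 for 2 higher and 7 lower genes with TNC + vehicle against untreated and for 8 higher and 2 lower in the other. Map1lc3b, an LC3 gene, had values of 12.08, 12.08 and 12.16 in TNC + TLR4i arrays, 11.38, 11.19 and 11.06 in TNC + vehicle arrays and 12.04, 12.05 and 12.07 in untreated arrays. It fell with TNC + vehicle against untreated, with a difference of -0.84 (limma adjusted p = 1.5e-05), and was higher by 0.89 with TNC + TLR4i against TNC + vehicle (limma adjusted p = 7.79e-06). The mean of the Map1lc3b probe sets gave -0.55 for the first of these, under 1.5-fold. Gabarapl1 was the other called gene, higher by 0.78 with TNC + TLR4i against TNC + vehicle. With TNC + TLR4i against untreated 0 of the 12 were called, and 2 were higher and 0 lower by the unadjusted limma p.

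**Figure D4:**
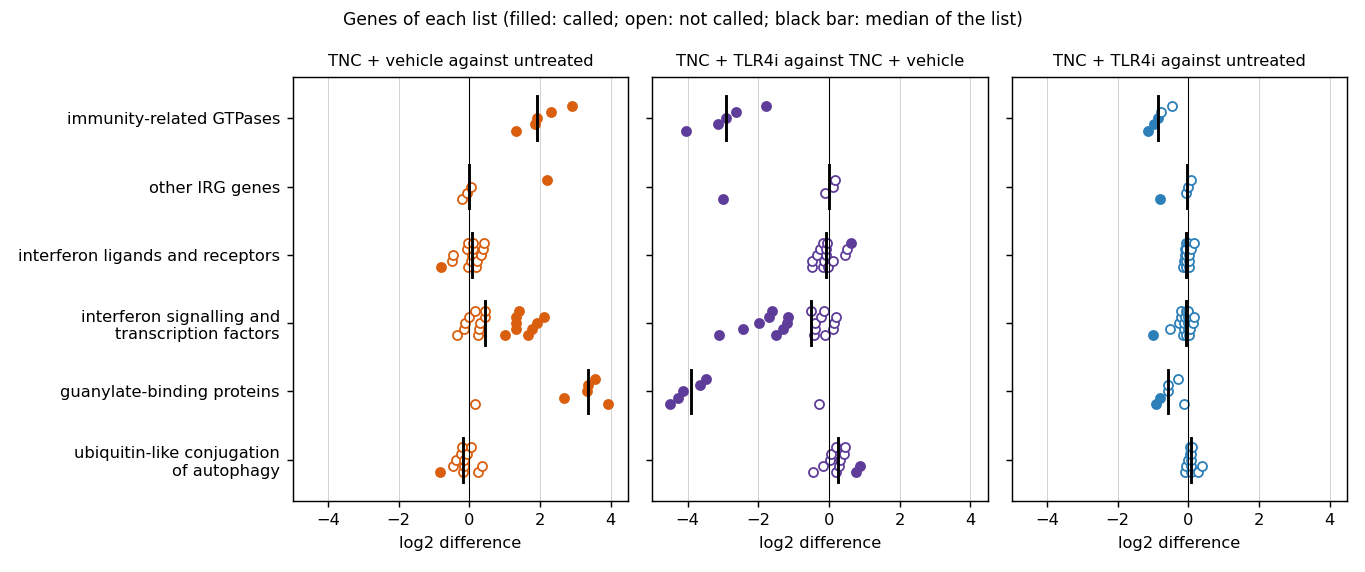
Log2 difference of each measured gene in the IRG family and in the 5 related lists, for the 3 comparisons (points are genes, bars are list medians). By list median, the GBP genes (3.35) and the IRG members (1.92) lie highest with TNC + vehicle against untreated and lowest (-3.89 and -2.91) with TNC + TLR4i against TNC + vehicle, and the interferon ligands and receptors lie near 0 (0.07 and -0.09).

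Counted by gene, with a gene counted where any of its windows held the letters, the ISRE letters were found for 524 of 14452 measured genes with a window (3.63%). They were found for 63 of 557 genes called higher with TNC + vehicle against untreated (11.3%) and 17 of 594 genes called lower (2.86%). For genes called lower with TNC + TLR4i against untreated the count was 13 of 27 (48.1%). These 13 include Igtp, Gbp3 and Gbp7, so the share is not independent of the genes described above. The GAS letters were found for 1239 of the 14452 genes (8.57%). They were found for 56 of the 557 (10.1%), 45 of the 594 (7.58%) and 7 of the 27 (25.9%). Among the lists, the 4 GBP genes with a window, Gbp2, Gbp2b, Gbp3 and Gbp7, all held the ISRE letters, as did 3 of 15 signalling genes and 0 of 9 autophagy genes. The letters were also in 7 of 14 interferon ligands and receptors, all 7 of them interferon-alpha genes, and 0 were called higher with TNC + vehicle against untreated. Their group means ran from 5.93 (Ifna11, untreated) to 7.07 (Ifna9, TNC + vehicle), near or below the array medians. At such low signals a missing call says little about a rise. The GAS and ISRE arrangement stood in the windows of 6 measured genes. Igtp and Irgm2 are among them and were called, but the arrangement was defined after their sequences were seen, so they cannot test it. Of the rest, the ETS-family repressor Etv6 (1.01, gap of 4 bases) and the tetherin gene Bst2 (1.04, gap 3) were called higher with TNC + vehicle against untreated. Gm12185 (gap 2, low signal) and the chemokine gene Cxcl14 (0.10, gap 10) were not called. Over all genes 3.74% were called higher there. These few genes cannot show whether the arrangement goes with a rise.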

How the data were processed

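RNA of the 9 BMDM samples was hybridized to Affymetrix mouse arrays. The authors normalized the arrays by RMA in Chipster and deposited the resulting log2 signals. Quantile normalization within RMA would hide a change of total RNA, and the number of arrays limits the precision.

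After removal of 64 array controls, 45037 probe sets remained, of which 34945 were annotated to 1 gene, 932 to several and 9160 to none. Each gene was given by the probe set with the highest mean. Each pair of groups was fitted on its 6 arrays by lmFit and eBayes of limma 3.58.1 (R 4.3.3), two-sided, with Benjamini-Hochberg adjustment across probe sets, and the fit was tested on simulated data. Alternatives were other fits and filters, other scalings, a replicate block, treat, other thresholds, the mean of probe sets and each array left out in turn.

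The members, the lists and the markers were chosen with earlier results of these data known. Genes named were all members, other measured IRG genes, genes of known role or the largest change in a list, and the 5 genes nearest the members' mean profile. Other genes were named after their values were seen.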

Additional observations from a re-analysis of the deposited data

How the results depend on the processing

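Of 306 values for counts of called genes under the alternatives, 276 stayed within 1.5 times the count reported and 30 did not. The 5 IRG genes kept their direction and their call in both comparisons with TNC + vehicle under all 17 alternatives. With TNC + TLR4i against untreated, the 3 called IRG genes became 0 with treat against 1.5-fold and 1 with a minimum fold of 2, and 2 to 5 when single arrays were left out. Igtp also lost its call with trend and robust settings (limma adjusted p = 0.0875). The Gm4951 call there was lost with treat and with a minimum fold of 2 (0 in both). The Usp18 call was lost with trend and robust settings, treat and a minimum fold of 2 (0 in each), and the signalling count ran from 1 to 2 without single arrays. The count of 2 GBP genes became 4 with cyclic loess, 4 with no minimum fold, 0 with treat, 0 with a minimum fold of 2, and 2 to 4 without single arrays. With no minimum fold, 1 autophagy gene was called there. For TNC + vehicle against untreated, no minimum fold gave 7 ligands and receptors, 15 signalling genes and 7 autophagy genes, and treat or a minimum fold of 2 gave 0 ligands and receptors and 0 autophagy genes, as did the mean of probe sets for autophagy. For TNC + TLR4i against TNC + vehicle, no minimum fold gave 6, 14 and 9, and treat or a minimum fold of 2 gave 0 ligands and receptors and 0 autophagy genes. The higher and lower calls over all genes were 736 and 638 with cyclic loess and 578 and 483 with the mean of probe sets, against 680 and 736, for TNC + vehicle against untreated, and 634 and 825, 498 and 628, against 774 and 736, for TNC + TLR4i against TNC + vehicle. The cause of these changes was not tested, apart from the thresholds themselves.

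Replicate numbers were not taken to pair the arrays, because of the deviations over all probe sets. Those of same-numbered arrays correlated at -0.10 to 0.14 and those of other arrays at -0.12 to 0.10. The 6 IRG probe sets shared an order, with replicate 1 lowest in 6 for untreated and in 5 for each other group. Whether same-numbered arrays share a source was not tested. With a replicate block 17 of 18 counts were unchanged, and 4 IRG genes were called with TNC + TLR4i against untreated (Irgm2 added, limma adjusted p = 0.000851). Small differences that changed sign were those of Gm12185 (-0.17 to 0.05 without single arrays) and Irf9 (-0.07 to 0.06 without single arrays, 0.04 with cyclic loess) for TNC + vehicle against untreated, and those of Irgc1 (-0.11 to 0.01 without single arrays) and Irgq (-0.07 to 0.03 without single arrays, 0.04 with the mean of probe sets) for TNC + TLR4i against untreated.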
